A study of Mus musculus with 33 samples.

Results

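Mini-colon AKP line #ii was set against mini-colon AKP line #i, with 3 libraries of each among the 33 libraries of the series. The 6 libraries were chosen by their titles, and all 6 file names carry the code letter E, whose meaning the sources do not state. Both are mouse colon organoid lines of the genotype AKP, in which Apc and Trp53 are floxed and recombined by Cre, and both received OptoCre activation. OptoCre is a lentiviral module that makes Cre when doxycycline and blue light are given, so both lines also carry its vectors and a recombination reporter. The cells had formed tumours in a mini-colon, a tube-shaped colon epithelium in a microfluidic hydrogel with crypt and lumen domains, and both lines came from mini-colons enriched in lumen-derived tumours. They are of interest as lines of the same niche that differ in growth in basal medium, which lacks growth factors. Before RNA was taken the organoids were cultured for 3 days and starved for 24 h in that medium. Each line is a pool of mini-colon cancer cells and stands alone on its side of the comparison. The study counts the libraries of a line as separate cultures, so p-values measure the spread between cultures of 1 line. Organoid AKP, the same inducible organoids activated and kept as organoids, is given as a further level, by its 3 libraries of letter E.

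AKP cells lack APC, which helps to destroy β-catenin and so restrains WNT signals, and p53, which halts or kills stressed cells. A gene's transcript level follows the activity of its promoter, the stability of its RNA and the number of copies of its chromosome, and RNA counts alone do not separate these. DNA copy number was not measured in the libraries described here.

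Total counts were 3340775, 3734970 and 5885703 in the #ii libraries, against 3381637, 3320604 and 2829223 in the #i libraries. Of 13606 genes tested with edgeR's quasi-likelihood test at an adjusted p of 0.05, 1029 were higher in #ii (7.56%) and 938 were lower (6.89%). At least 1 log2 unit separated the lines for 229 higher genes (1.68%) and 195 lower genes (1.43%). Libraries of both lines did not overlap for 3682 genes (27.1%). Apc (log2 fold change -0.23 ± 0.10, adjusted p = 0.102) and Trp53 (-0.50 ± 0.38) did not pass the test, and their 3′ tags can lie outside the recombined parts, so they do not check the alleles. Summed epithelial and colon identity markers stood at 4993 to 5221 CPM in #ii and 5018 to 5245 CPM in #i (CPM, counts scaled to TMM library size). Fibroblast and muscle markers summed to 12.9 to 27.2 CPM in #ii and 6.73 to 11.7 CPM in #i, with 7 of 14 at 0 in all 6 libraries, among them Col3a1, Dcn and Pdgfrb. Immune cell markers summed to 12.9 to 17.9 CPM in #ii and 10.2 to 12.3 CPM in #i, with 7 of 13 at 0, among them Cd3e and Itgam. Endothelial markers summed to 10.3 to 18.9 CPM in #ii and 3.503 to 5.45 CPM in #i, with Cdh5 and Tek of the 8 at 0. Some members of these lists were called. Fn1 of the fibroblast list (log2 fold change 1.21 ± 0.31), Cd68 of the immune list (1.01 ± 0.23) and Lyve1 of the endothelial list (2.67 ± 0.50) were higher in #ii. S100a8 of the immune list was lower (-3.53 ± 0.79), from 3 counts in #ii and 28 in #i.

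Part of the difference between the lines followed the chromosomes. Genes of chromosomes 16 and 19 were shifted upward together in #ii, and genes of a stretch of chromosome 2 were shifted downward together. On chromosome 16 the median log2 fold change over 428 tested genes was 0.42 (1.33-fold), 167 genes were higher and 6 were lower in #ii, and 83.2% of the genes lay above zero. On chromosome 19 the median over 475 genes was 0.44 (1.36-fold), 210 genes were higher and 4 were lower, and 86.9% lay above zero. The medians of the other 17 autosomes ran from -0.09 to 0.04, with between 2.95% and 7.59% of their genes higher in #ii. Chromosomes 16 and 19 held 377 of the 1029 higher genes (36.6%) and 6.64% of the genes tested. Off both chromosomes 652 of 12703 genes were higher (5.13%) and 928 were lower (7.31%). With the genes of both chromosomes left out of the scaling and the test, an alternative chosen after seeing the data, 852 of the remaining genes were higher and 638 were lower, so which direction has more calls there depends on the scaling.

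Each library of #ii carried the shift and no library of #i did. As the median of log2(CPM + 1) against the organoid AKP mean, chromosome 16 stood at 0.34, 0.34 and 0.32 in #ii, against -0.03, -0.003 and 0.00 in #i. Chromosome 19 stood at 0.34, 0.35 and 0.35 in #ii, against -0.02, -0.02 and -0.03 in #i. The libraries of the lines did not overlap on either chromosome. The 18 libraries of #i, #iii, #iv, #v and in vivo AKP lay between -0.03 and 0.05 on chromosome 16 and between -0.06 and 0.14 on chromosome 19, each against organoid AKP of its own letter. In the control organoids chromosome 16 lay between -0.18 and -0.09, and chromosome 19 between 0.19 and 0.28, so a raised chromosome 19 median was not particular to #ii.

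**Figure D1:**
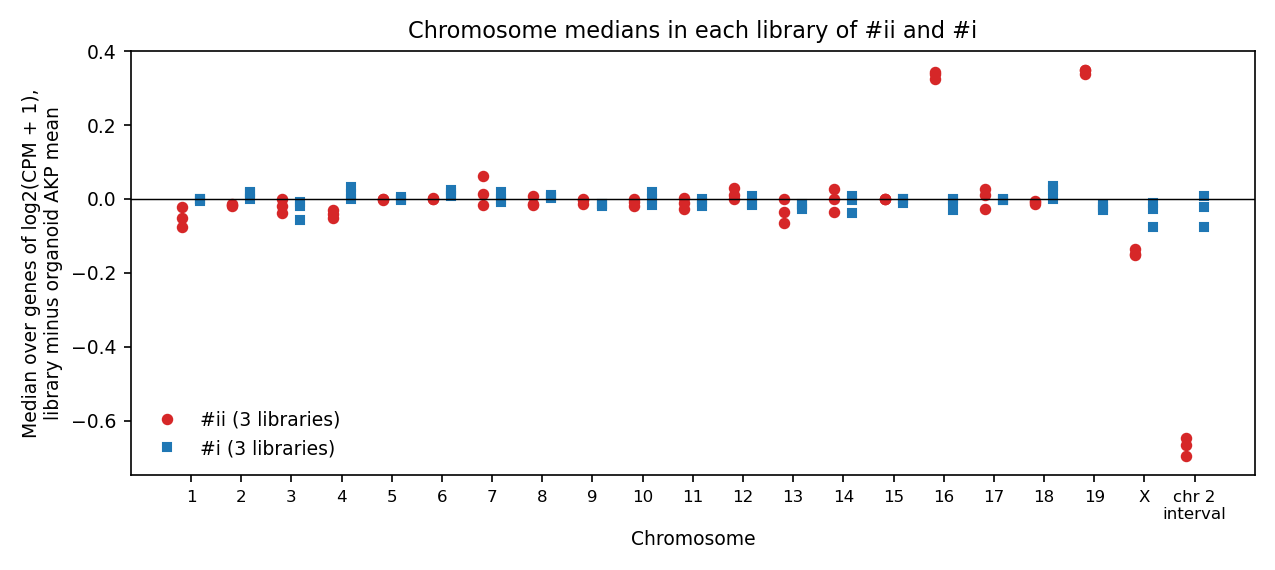
Median over the tested genes of each chromosome (x axis) of log2(CPM + 1) in a library minus the mean of the 3 organoid AKP libraries of letter E (y axis), for the 3 libraries of #ii (red circles) and of #i (blue squares). The #ii libraries stand between 0.32 and 0.35 on chromosomes 16 and 19 and between -0.70 and -0.65 in the chromosome 2 interval, where the #i libraries stand between -0.08 and 0.01.

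The shift ran the length of both chromosomes. In windows of 10 Mb with at least 20 tested genes, the 7 windows of chromosome 16 had median log2 fold changes between 0.26 and 0.45, and the 6 windows of chromosome 19 between 0.40 and 0.52. Elsewhere 206 windows had medians between -0.42 and 0.16. Individual genes departed from the common step. Aldh1a1 (chromosome 19: 20469539 to 20622825, GRCm39), an aldehyde dehydrogenase that makes retinoic acid and serves as a stem cell marker, had 167, 154 and 171 CPM in #ii, against 5.85, 3.795 and 8.51 CPM in #i (log2 fold change 4.78 ± 0.19, adjusted p = 2.13e-20). Organoid AKP averaged 79.6 CPM of Aldh1a1, between the lines. Tbx1 (chromosome 16), a T-box transcription factor, had 76.4, 73.1 and 85.8 CPM in #ii, against 21.4, 13.7 and 18.04 CPM in #i. Col8a1 (chromosome 16), a short-chain collagen, had 134, 117 and 119 CPM in #ii, against 44.8, 43.5 and 35.7 CPM in #i. Organoid AKP averaged 18.3 CPM of Tbx1, close to #i, and 5.57 CPM of Col8a1, below both lines. Cemip2 (chromosome 19), a cell surface protein linked to hyaluronan breakdown, had 315, 392 and 393 CPM in #ii, against 90.7, 98.4 and 92.6 CPM in #i. Mylk (chromosome 16), the myosin light chain kinase that drives contraction, had 369, 374 and 512 CPM in #ii, against 185, 163 and 183 CPM in #i. For all of these genes each #ii library lay above each #i library. This was a condition for naming Aldh1a1, and the others were chosen after their values were seen.

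A group of 4 neighbouring genes on chromosome 19, from Cdc37l1 to Jak2 (28967725 to 29290505), stood above the rest of the chromosome with a median log2 fold change of 0.998. Its edges were set by the values, as 1 of the 12 runs described for chromosome 2 below, and it falls short of the 10 genes asked there. Ak3, a mitochondrial adenylate kinase, had 165, 191 and 214 CPM in #ii, against 64.3, 51.97 and 58.2 CPM in #i. Jak2, the tyrosine kinase that carries signals from cytokine receptors, had 62.1, 61.3 and 61.7 CPM in #ii, against 29.3, 27.2 and 27.9 CPM in #i (log2 fold change 1.13 ± 0.13, adjusted p = 1.83e-09). Rcl1, a factor of ribosomal RNA processing, rose by a log2 fold change of 0.86 ± 0.13, and Cdc37l1, at the edge of the group, by 0.39 ± 0.10, a size near that of the chromosome. Plpp6, which starts before the group at 28941353, rose by 1.42 ± 0.18 (adjusted p = 2.43e-08), so raised genes did not end at that edge. The 10 lower genes of both chromosomes included Tfrc (chromosome 16), the transferrin receptor that brings iron into cells, with 66.95, 72.8 and 68.7 CPM in #ii, against 95.6, 104 and 101 CPM in #i (log2 fold change -0.53 ± 0.10, adjusted p = 0.000142). Ovol1 (chromosome 19), a zinc finger factor of epithelial identity, had 8.91, 6.57 and 7.54 CPM in #ii, against 20.5, 12.9 and 18.7 CPM in #i. Each #ii library lay below each #i library for both genes.

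On chromosome 2 a stretch of 5.22 Mb, from Cacfd1 to Prrc2b (26899938 to 32124551, GRCm39), had lower transcript levels in #ii. It is a run of genes above 15 CPM whose running median over 9 genes lay more than 0.3 from the chromosome's median, and it was the only such run of at least 10 genes among 12, the next longest holding 7. Its edges were set by the values, so no test of it as a whole is given. All 33 of its genes above 15 CPM lay below zero, with log2 fold changes from -1.22 to -0.30, and 31 of them were called lower. Of its 37 genes at or under 15 CPM 15 were called lower, and none of the 70 was called higher. The median over the 70 genes was -0.70 (0.614-fold), while the other 942 genes of chromosome 2 had a median of 0.00. Against organoid AKP the stretch stood at -0.70, -0.67 and -0.65 in the libraries of #ii, against 0.01, -0.02 and -0.08 in those of #i. The 18 libraries of #i, #iii, #iv, #v and in vivo AKP lay between -0.18 and 0.08, and the control libraries between -0.32 and -0.13.

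The step at both edges fell between neighbouring genes. Rexo4, the gene above 15 CPM just before the stretch, had 60.1, 56.5 and 64.6 CPM in #ii, against 65.8, 56.4 and 73.5 CPM in #i, and the lines overlapped. Cacfd1, which follows it, had 10.1, 12.4 and 17.9 CPM in #ii, against 30.7, 28.3 and 23.2 CPM in #i. At the far edge Prrc2b had 44.3, 54.95 and 48.04 CPM in #ii, against 71.7, 94.01 and 90.9 CPM in #i. The lines were separate for both of these genes, and they overlapped again for Uck1, just after the stretch, with 40.8, 37.6 and 44.6 CPM in #ii, against 35.7, 40 and 28.3 CPM in #i. The 6 genes before the stretch had log2 fold changes between -0.17 and 0.01, and the 6 genes after it between -0.02 and 0.24.

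**Figure D2:**
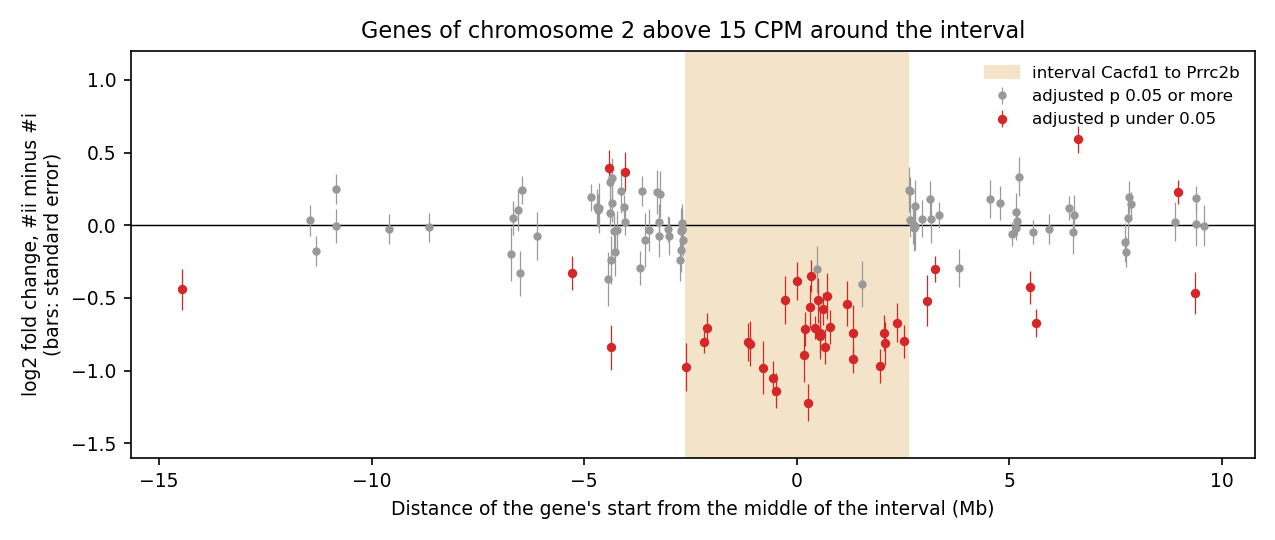
Log2 fold change of #ii minus #i (y axis, bars are standard errors) for genes of chromosome 2 above 15 CPM, by the distance of the gene's start from the middle of the interval in Mb (x axis). The 33 genes in the shaded interval all lie below zero, and the 6 genes on either side lie between -0.17 and 0.24.

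The stretch holds genes of chromatin, RNA and the nuclear pore. Set, a histone chaperone and inhibitor of protein phosphatase 2A, had 457, 399 and 353 CPM in #ii, against 688, 648 and 630.1 CPM in #i. Brd3, a bromodomain protein that reads acetylated histones, had 130.2, 118 and 122 CPM in #ii, against 214, 222 and 210.4 CPM in #i. Libraries of the lines did not overlap for either gene, and organoid AKP averaged 680.4 CPM of Set, near #i, and 246 CPM of Brd3, higher than the mean of either line, with no test of these differences. Abl1, a non-receptor tyrosine kinase, had 14.7, 17.6 and 15.9 CPM in #ii, against 26.9, 32.7 and 24.9 CPM in #i. Nup214, a nuclear pore protein, had 26.7, 33.4 and 31.3 CPM in #ii, against 54.1, 41.8 and 50.4 CPM in #i. Wdr5, a subunit of histone H3 methyltransferase complexes, was lower in #ii by a log2 fold change of -0.71 ± 0.11, Tor1b, a torsin of the endoplasmic reticulum, by -0.92 ± 0.10, and Fubp3, a single-strand nucleic acid binding protein, by -0.97 ± 0.12. Odf2, a protein of the centriole's appendages, had the lowest value above 15 CPM, -1.22 ± 0.13.

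**Figure D3:**
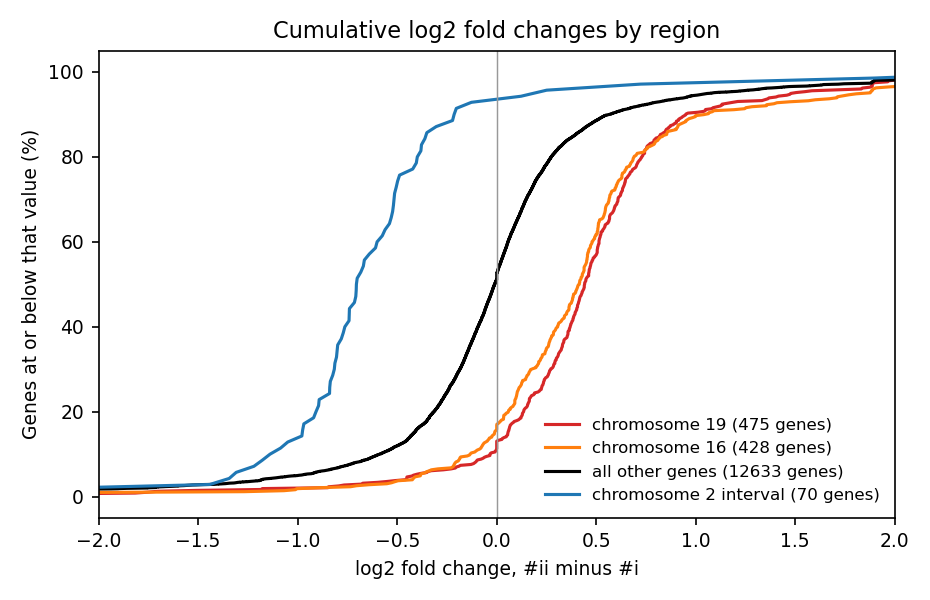
Share of genes at or below each log2 fold change of #ii minus #i (y axis in percent, x axis from -2 to 2), for chromosome 19 (475 genes), chromosome 16 (428 genes), the chromosome 2 interval (70 genes) and all other genes. The medians are 0.44 for chromosome 19 and 0.42 for chromosome 16, and -0.70 for the interval.

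Chromosome X had a median log2 fold change of -0.12 over 398 genes, with 14 genes higher and 41 lower in #ii. The median was -0.064 with chromosomes 16 and 19 left out of scaling and test, and -0.074 without #ii replicate 3. Against organoid AKP it stood at -0.15, -0.15 and -0.14 in #ii, against -0.08, -0.03 and -0.01 in #i. Chromosome Y had only 6 tested genes, with a median of 0.50, and 2 of them were higher and none lower. Ddx3y, a Y-linked RNA helicase, had 128, 101 and 104 CPM in #ii, against 59.1, 53.4 and 70.5 CPM in #i (log2 fold change 0.87 ± 0.11, adjusted p = 3.19e-08). Organoid AKP averaged 93.3 CPM in letter E, between the lines and nearer to #ii, but 43.03 CPM in letter F, below the mean of either line. Uty, a Y-linked relative of a histone demethylase, had 9.48, 12.4 and 14.9 CPM in #ii, against 6.73, 7.59 and 5.45 CPM in #i, and its call was lost without #ii replicate 3, at a log2 fold change of 0.74. Eif2s3y and Kdm5d did not pass the test, with log2 fold changes of 0.46 ± 0.18 and 0.34 ± 0.22. Mitochondrially encoded transcripts summed to 13014, 23987 and 25289 CPM in #ii, against 32027, 27524 and 24511 CPM in #i. The first #ii library stood below the other 5 here, and of 9 tested genes mt-Nd5 and mt-Nd2 were called lower, but neither passed without that library (log2 fold changes -0.32 and -0.35), without #i replicate 1 (-0.37 and -0.34) or without #i replicate 2 (-0.53 and -0.695).

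Irx3 and Irx5, neighbouring Iroquois homeobox factors that pattern tissues, were nearly silent in #ii. Irx3 (chromosome 8: 92525153 to 92528695) had 5.17, 7.099 and 6.72 CPM in #ii, against 182, 162 and 146 CPM in #i (log2 fold change -4.67 ± 0.14, adjusted p = 2.31e-34). Irx5 had 0.575, 1.32 and 0.492 CPM in #ii, against 19.6, 20.1 and 19.4 CPM in #i (log2 fold change -4.67 ± 0.33, adjusted p = 2.72e-17). #i had the highest mean of Irx3 in the series and #ii stood with the lowest lines, since Irx3 averaged 129.6 CPM in organoid AKP, 55.5 CPM in #iii, 29.3 CPM in #v and 23.1 CPM in #iv, while libraries of letter E averaged 7.43 CPM for in vivo AKP and 3.97 CPM for control organoids. Elavl2, an RNA-binding protein best known from neurons, had 0, 1.05 and 0.328 CPM in #ii, against 41.5, 42.6 and 56.5 CPM in #i (log2 fold change -6.62 ± 0.30, adjusted p = 2.95e-26). Its mean was 36.5 CPM in organoid AKP and 4.88 CPM in the controls of letter E, so #ii lay below both.

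Further genes were far lower in #ii than in #i. Khdc1a, a KH-domain protein known from oocytes, had 0.862, 0.263 and 1.15 CPM in #ii, against 29.5, 32.1 and 33.7 CPM in #i, and it averaged 7.07 CPM in organoid AKP. Col26a1, a collagen, was counted 3 times in #ii and 91 times in #i, or higher in #i by 41.5-fold, 95% exact counting interval 13.8 to 205. Tfap2a, an AP-2 transcription factor of surface ectoderm, had 1.15, 0.789 and 0.328 CPM in #ii, against 10.2, 11.97 and 6.47 CPM in #i. No #ii library reached any #i library in these genes, which was a condition for naming them. Klra4, of the Ly49 receptor family, had 2.299, 2.37 and 1.64 CPM in #ii, against 19.01, 26.3 and 20.1 CPM in #i, and Ly6c2, of the Ly6 surface antigen family, had 2.87, 3.42 and 4.43 CPM in #ii, against 35.1, 43.8 and 36.4 CPM in #i. Both belong to families of near-identical genes whose reads may be split between copies, so their levels are uncertain. Organoid AKP of letter E averaged 1.27 CPM of Col26a1 and 2.53 CPM of Klra4, nearer to #ii, and letter F averaged 1.18 and 12.8 CPM. Col26a1 averaged 7.4 CPM in #iii, 9.86 CPM in #iv and 4.12 CPM in #v, so #i was not alone in its level. In vivo AKP averaged 4.03 CPM of Col26a1 in letter E and 0.84 CPM in letter F. Klra4 averaged 7.84 CPM in #iii, 5.997 CPM in #iv and 2.99 CPM in #v, all below #i. Organoid AKP of letter E averaged 11.8 CPM of Tfap2a and 24.7 CPM of Ly6c2, nearer to #i. Eid2, an inhibitor of differentiation that blocks histone acetylation, and Zfp991, a zinc finger gene, were lower by log2 fold changes of -2.63 ± 0.23 and -2.67 ± 0.38.

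Among the genes with the largest rises, Igfbp7, a secreted binding protein for insulin-like growth factors, was counted 148 times in #ii and 2 times in #i (54.1-fold, 95% exact counting interval 14.7 to 451). Fgf9, a fibroblast growth factor, was counted 91 times in #ii and 2 times in #i (33.3-fold, 95% exact counting interval 8.95 to 279). Sftpd, a collectin that binds microbes, had 13.2, 16.3 and 15.4 CPM in #ii, against 0.877, 0.584 and 1.702 CPM in #i. Each of these genes was close to 0 in #i. Lcn2, the lipocalin that sequesters bacterial siderophores, had 10.3, 19.7 and 16.9 CPM in #ii, against 1.17, 1.17 and 1.02 CPM in #i. Cox6a2, the muscle-type subunit of cytochrome c oxidase, had 26.2, 33.9 and 35.6 CPM in #ii, against 1.17, 2.34 and 3.06 CPM in #i (log2 fold change 3.88 ± 0.32, adjusted p = 2.99e-14). Organoid AKP averaged 0.634 CPM of Lcn2 and 1.64 CPM of Cox6a2, the level of #i. Serpinb6b, a serpin of a cluster of related genes, rose by a log2 fold change of 3.97 ± 0.43, Peli2, a ubiquitin ligase of Toll-like receptor signalling, by 3.51 ± 0.51, and Bcl2l15, a BCL2 family member, by 3.21 ± 0.28.

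**Figure D4:**
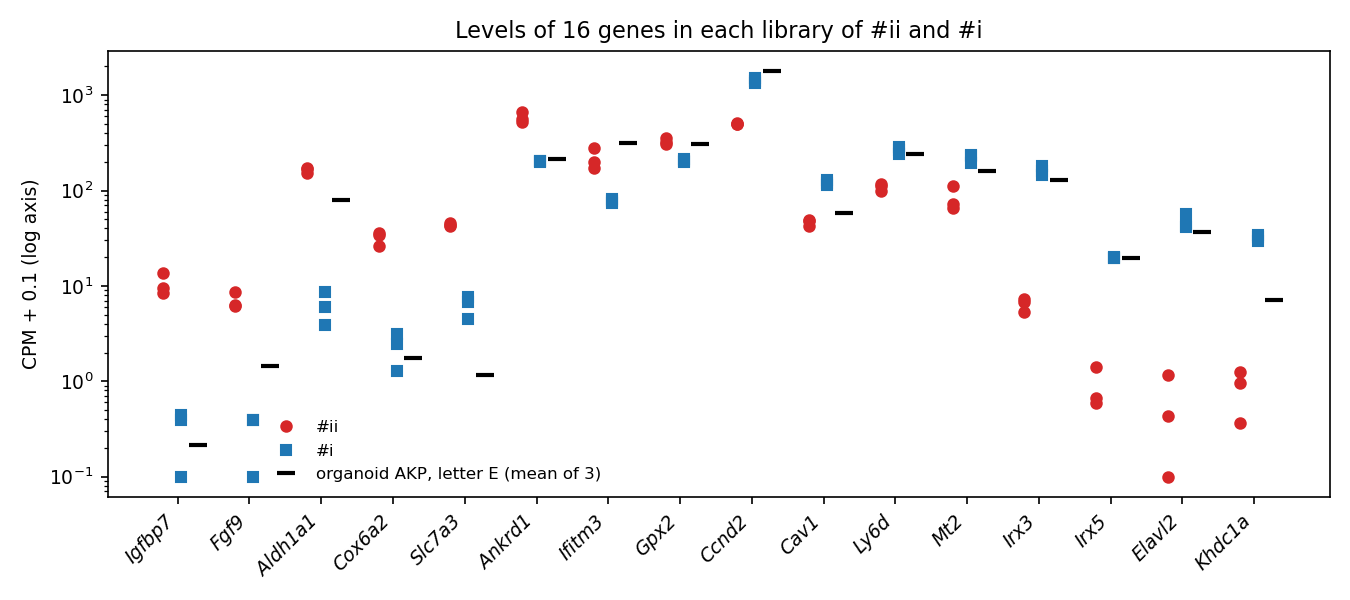
Levels of 16 genes in CPM + 0.1 on a log axis, in each of the 3 libraries of #ii (red circles) and of #i (blue squares), with the mean of the 3 organoid AKP libraries of letter E (black bars). The libraries of both lines do not overlap for any of the 16, which was a condition for naming part of them. Among all genes tested 27.1% did not overlap. Irx3, Irx5 and Elavl2 in #ii lie far below both #i and organoid AKP.

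Gene lists by role were counted beside a median log2 fold change of 0.00 over all genes tested and of -0.01 off chromosomes 16 and 19. For every list the counts stand beside 7.56% higher and 6.89% lower among all genes tested. Off chromosomes 16 and 19 these shares were 5.13% and 7.31%. Antioxidant and glutathione genes, which detoxify peroxides and keep thiols reduced and many of which are targets of the factor NRF2, had 23 higher and 3 lower of 54 tested members, beside 7.56% and 6.89% of all genes, and a median of 0.39. Off chromosomes 16 and 19 it was 17 higher and 3 lower of 47, with a median of 0.27. Srxn1, the sulfiredoxin that restores peroxiredoxins, had 89.7, 107 and 125 CPM in #ii, against 51.2, 63.1 and 52.1 CPM in #i (log2 fold change 0.96 ± 0.11, adjusted p = 1.52e-09). Gpx2, the glutathione peroxidase of gut epithelium, had 307, 326 and 352 CPM in #ii, against 197, 206 and 211 CPM in #i (log2 fold change 0.68 ± 0.09, adjusted p = 3.64e-08). Organoid AKP averaged 307 CPM of Gpx2, close to #ii. Gclm, the modifier subunit of the enzyme that limits glutathione synthesis, had 285, 213 and 240.1 CPM in #ii, against 145, 163 and 168 CPM in #i. Nqo1, a quinone reductase, averaged 26.4 ± 2.88 CPM in #ii and 13.1 ± 2.89 CPM in #i (SD, n = 3 each). Nfe2l2, which encodes NRF2 itself, rose by a log2 fold change of 0.33 ± 0.08, and Slc7a11, the cystine importer, by 0.70 ± 0.15. Cbr3 (chromosome 16), a carbonyl reductase, rose by 2.63 ± 0.31, and Sod1 (chromosome 16), the cytosolic superoxide dismutase, by 0.48 ± 0.08, near the median of its chromosome. Mgst2, Akr1c13 and Sod2 were the 3 lower members.

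Stretches of the promoters of 4 higher members are shown because they hold the core letters of the antioxidant response element, to which NRF2 binds. The letters searched were TGACNNNGC on both strands, within 250 bases before and 50 bases after each gene's start in RefSeq promoters (GRCm38.p6). Each stretch is read 5′ to 3′ on the strand of the match, which the capitals mark.
Srxn1 (chr2:152105542-152105571, minus strand): gtgtctcactcTGACCTAGCtgcccactgc
Gclm (chr3:122245413-122245442, minus strand): ctcgtgagagtTGACGGTGCgcccgggagc
Txnrd1 (chr10:82859104-82859133, minus strand): ccgtgtcagaaTGACAAAGCaaaaatccag
Nfe2l2 (chr2:75704884-75704913, minus strand): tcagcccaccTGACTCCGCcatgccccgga
Of the 23 higher members 20 had a promoter in the table and 7 of these held the letters, as did 5 of the 25 other tested members with a promoter. Counted by gene, as the members were, 14% of 27025 genes held them, and 12.4% of all 32851 promoters did. A match describes the letters, and no binding was measured. Txnrd1, the thioredoxin reductase, had 509, 410.1 and 418 CPM in #ii, against 315, 366 and 329 CPM in #i.

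Interferon response genes, which cells switch on when interferon is sensed, had 12 higher and 1 lower of 39 tested members. This stands beside 7.56% and 6.89% of all genes, and the list's median was 0.71. Dtx3l, Parp9, Parp14 and Rtp4 of the higher ones lie on chromosome 16, and off chromosomes 16 and 19 it was 8 of 31, with a median of 0.63. Isg15, a ubiquitin-like modifier, had 27.9, 23.9 and 26.2 CPM in #ii, against 9.94, 14.9 and 9.87 CPM in #i (log2 fold change 1.16 ± 0.19, adjusted p = 5.88e-06). Ifitm3, a membrane protein that restricts viral entry, had 172, 200.1 and 278 CPM in #ii, against 80.7, 77.1 and 73.2 CPM in #i (log2 fold change 1.502 ± 0.20, adjusted p = 8.93e-06). Organoid AKP averaged 318 CPM of Ifitm3 in letter E, above both lines, but 187.7 CPM in letter F, between the means of the lines. Irf1, a transcription factor of the interferon response, rose by a log2 fold change of 0.63 ± 0.13. Of 24 tested genes of MHC class I antigen presentation 5 were higher (B2m, Tap1, Psmb9, Psmb8 and H2-M3) and H2-K1 was lower, and the members called in either direction numbered 3 without #i replicate 1. Tap1, the peptide transporter, had 4.597, 4.73 and 4.76 CPM in #ii, against 1.76, 0.876 and 1.36 CPM in #i. H2-K1, a classical heavy chain of a family with closely related members, averaged 280.2 ± 28.4 CPM in #ii and 371 ± 24.7 CPM in #i (SD, n = 3 each).

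Stretches of the promoters of Isg15 and Gbp2 are shown because they hold the letters of the interferon-stimulated response element, searched as GAAA followed by NN and GAAA on both strands of the same promoters, with the match in capitals.
Isg15 (chr4:156200877-156200906, minus strand): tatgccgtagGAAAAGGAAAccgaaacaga
Gbp2 (chr3:142620594-142620623, minus strand): ttaagacagtGAAAGTGAAActaaaagagt
Of 7 higher members with a promoter 3 held the letters, as did 14 of the 24 other tested members with a promoter. Counted by gene, as the members were, 3.99% of all genes held them, and 3.44% of all promoters did. Isg15 holds 3 matches that overlap one another, of which 1 is marked. Gbp2, a guanylate-binding GTPase, had 4.597, 3.94 and 2.79 CPM in #ii, against 1.46, 1.75 and 1.02 CPM in #i, and its call was lost with single libraries left out, at log2 fold changes of 1.37 without #i replicate 1, 1.19 without #i replicate 3 and 1.21 without #ii replicate 1.

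Cell cycle genes leaned downward. Of 63 tested members 13 were lower and 3 were higher, beside 6.89% and 7.56% of all genes, with a median of -0.14. Mcm4 and Cdc45 of the higher ones, both of the DNA replication machinery, lie on chromosome 16. Ccnd2, a D-type cyclin that opens G1, had 495, 501 and 509 CPM in #ii, against 1508, 1417 and 1354 CPM in #i (log2 fold change -1.51 ± 0.08, adjusted p = 5.31e-23). Organoid AKP averaged 1790.4 CPM of Ccnd2 and the lowest mean among #iii, #iv, #v and in vivo AKP was 1114 CPM, so #ii lay below the other AKP lines. Cenpe, a kinetochore motor, had 269.8, 307 and 266 CPM in #ii, against 414, 408 and 441 CPM in #i. Mki67, the proliferation marker, had 191, 234 and 208 CPM in #ii, against 328, 327 and 341 CPM in #i (log2 fold change -0.65 ± 0.14, adjusted p = 0.000995). Ccne2, a cyclin of S phase entry, was lower by a log2 fold change of -0.74 ± 0.13. Of 11 inhibitors of the cycle 4 were lower and 1 was higher. Cdkn1a, p21, had 27.3, 26.6 and 29.5 CPM in #ii, against 61.1, 52.8 and 47.3 CPM in #i, and Cdkn1c, p57, had 2.299, 2.89 and 6.07 CPM in #ii, against 11.99, 15.5 and 21.5 CPM in #i. Cdkn2b, p15, was the higher one, with 38.8, 29.2 and 28.9 CPM in #ii, against 18.1, 14.01 and 17.7 CPM in #i, while its neighbour Cdkn2a did not pass (-0.05 ± 0.08).

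Receptors and growth factors were followed because growth in basal medium goes on without added ligands. Of 32 tested receptor tyrosine kinases 3 were higher and 4 were lower, beside 7.56% and 6.89% of all genes. The members called in either direction numbered 3 without #i replicate 2. Ddr2, a collagen receptor, had 13.5, 14.5 and 14.4 CPM in #ii, against 3.51, 5.84 and 3.404 CPM in #i (log2 fold change 1.72 ± 0.30, adjusted p = 1.90e-05). Egfr, the EGF receptor, had 18.96, 19.98 and 21.6 CPM in #ii, against 11.4, 11.1 and 17.7 CPM in #i (log2 fold change 0.62 ± 0.17, adjusted p = 0.009397), and its call was lost with single libraries left out, at log2 fold changes of 0.54 without #i replicate 1, 0.52 without #i replicate 2 and 0.57 without #ii replicate 3. Ror2, a receptor of WNT5A, had 0.862, 0.263 and 1.31 CPM in #ii, against 5.56, 5.55 and 2.04 CPM in #i. Igf1r did not pass (0.09 ± 0.13), and Kit had no count in any of the 6 libraries. Of 44 tested ligands 3 were higher and 7 were lower, and the members called in either direction numbered 6 without #i replicate 1, 6 without #i replicate 2 and 4 without #ii replicate 3. Ereg and Areg, both ligands of EGFR, were among the lower ones. Ereg had 35.3, 31.6 and 27.4 CPM in #ii, against 52.9, 57.5 and 51.7 CPM in #i, and Areg had 126, 85.5 and 56.4 CPM in #ii, against 151, 158 and 169.9 CPM in #i. The call of Areg was lost in a fit of the 6 libraries alone. Kitl, the ligand of KIT, had 105, 95.4 and 93.6 CPM in #ii, against 152, 160 and 135 CPM in #i (log2 fold change -0.61 ± 0.08, adjusted p = 1.48e-07). Among 9 tested genes of IGF binding proteins, Igfbp7, Igfbp2 and Igfbp4 were higher and Igfbp3 and Igf2bp2, an RNA-binding protein, were lower, and the members called in either direction numbered 3 without #i replicate 1, 3 without #i replicate 3 and 3 without #ii replicate 2. The call of Igfbp4 (log2 fold change 1.12 ± 0.35, adjusted p = 0.0257) was lost without any single library other than #ii replicate 1, at log2 fold changes of 0.95 to 1.24, and with limma-voom. Igfbp2 was counted 33 times in #ii and 2 times in #i (12.1-fold, 95% exact counting interval 3.08 to 104), and Igfbp3 had 0.575, 0.263 and 0.164 CPM in #ii, against 2.34, 2.63 and 5.11 CPM in #i. Of 30 tested genes of MAPK output and feedback, Dusp6, a phosphatase of ERK (0.31 ± 0.08), and Etv5 (chromosome 16, 0.65 ± 0.13) were higher, and Spry4, an inhibitor of receptor signals (-1.14 ± 0.29), and Ier3 were lower.

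Of 27 tested WNT targets 8 were higher and 3 were lower, beside 7.56% and 6.89% of all genes, with a median of 0.37. The members called in either direction numbered 7 without #i replicate 1, 7 without #i replicate 2 and 5 without #ii replicate 3. Off chromosomes 16 and 19 it was 6 higher and 3 lower of 25, beside 5.13% and 7.31% of all genes there. Tnfrsf19, a TNF receptor relative expressed by stem cells, had 157, 152 and 151 CPM in #ii, against 84.8, 96.9 and 84.4 CPM in #i (log2 fold change 0.79 ± 0.10, adjusted p = 1.41e-08). Ephb3 (chromosome 16), an ephrin receptor of the crypt base, had 79.01, 101 and 106 CPM in #ii, against 67.3, 60.4 and 44.6 CPM in #i. Lgr5, the R-spondin receptor of intestinal stem cells, had 30.5, 26.8 and 34.9 CPM in #ii, against 30.7, 36.8 and 40.9 CPM in #i and did not pass (-0.21 ± 0.16). Sox9, a factor of crypt progenitors, did not pass either (-0.21 ± 0.08). Of 20 tested stem cell markers 3 were higher (Aldh1a1, Tnfrsf19 and Ephb3) and 2 were lower (Ephb2 and Cd44), with a median of -0.07. The libraries of the lines overlapped for Ephb2, and its call was lost at log2 fold changes of -0.36 without #i replicate 2 and -0.34 without #ii replicate 1. The call of Cd44 was lost at -0.31 without #i replicate 1 and -0.24 without #ii replicate 3.

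**Figure D5:**
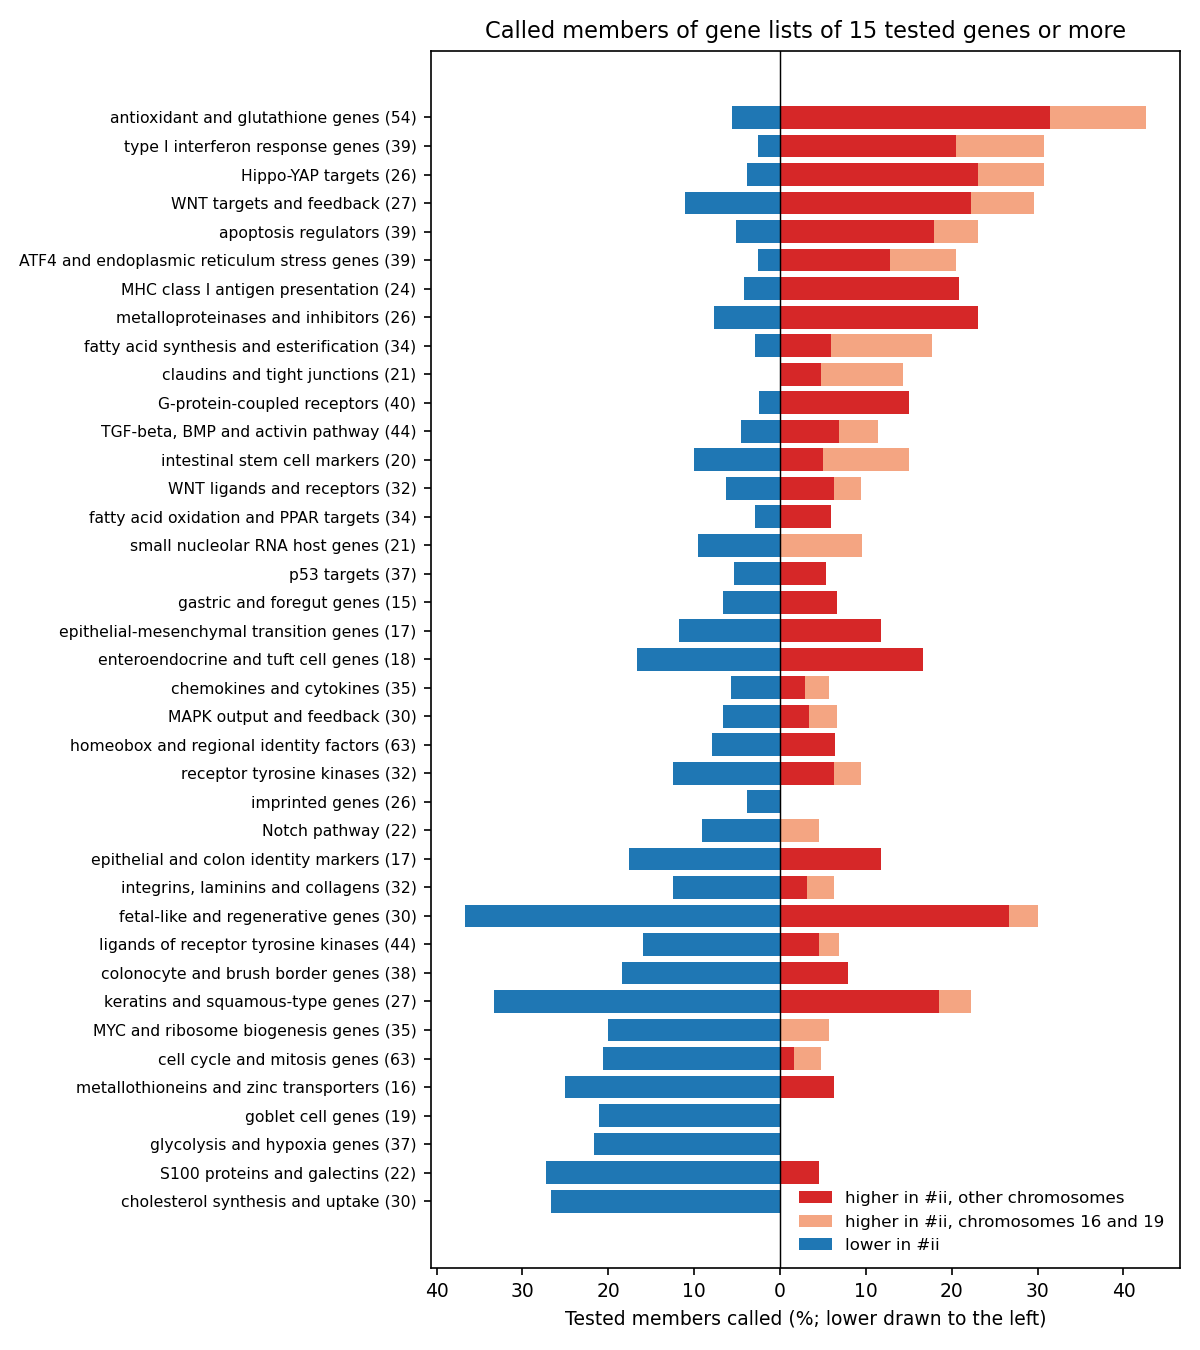
Share of tested members called higher in #ii (right, red off chromosomes 16 and 19 and pale on them) or lower (left, blue) in percent, for 39 gene lists with at least 15 tested members, whose number stands in brackets. Antioxidant and glutathione genes have 23 of 54 members to the right, and goblet cell, cholesterol, glycolysis and imprinted genes have bars to the left only. Among all genes tested 7.56% were higher and 6.89% were lower.

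Cholesterol synthesis and uptake had 8 lower and no higher genes of 30, beside 6.89% and 7.56% of all genes, with a median of -0.23. The members called in either direction numbered 5 without #ii replicate 2 and 5 without #ii replicate 3. Hmgcs1, which makes the precursor of mevalonate, had 299.7, 306 and 268 CPM in #ii, against 433, 403 and 408 CPM in #i (log2 fold change -0.51 ± 0.09, adjusted p = 2.46e-05). Hmgcs1 stood lower in every #ii library than in any #i library. Glycolysis and hypoxia genes had 8 lower and no higher genes of 37, with a median of -0.17, and the members called in either direction numbered 3 without #i replicate 1, 3 without #i replicate 2 and 4 without #ii replicate 2. Pdk1, which diverts pyruvate from mitochondria, had 26.7, 34.2 and 45.3 CPM in #ii, against 53.5, 71.5 and 72.2 CPM in #i, and Egln1, an oxygen sensor, had 46.8, 43.6 and 50.99 CPM in #ii, against 65.2, 72.99 and 70.1 CPM in #i. With chromosomes 16 and 19 left out of scaling and test, 5 cholesterol genes and 4 glycolysis genes were lower. Fatty acid synthesis and esterification had 6 higher and 1 lower of 34, and Acsl5, Fads1, Gpam and Fads3 of the 6 lie on chromosome 19. Acsl5, an acyl-CoA synthetase, had 461, 418 and 493 CPM in #ii, against 277, 279 and 288 CPM in #i.

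Differentiation genes differed in part. Of 19 tested goblet cell genes 4 were lower and none was higher, beside 6.89% and 7.56% of all genes, with a median of -0.52. Galnt12, a mucin glycosyltransferase, had 8.91, 10.5 and 11.97 CPM in #ii, against 29.5, 22.5 and 23.2 CPM in #i (log2 fold change -1.23 ± 0.18, adjusted p = 2.79e-07). Agr2, a disulfide isomerase that helps to fold mucins, had 6.03, 9.202 and 8.198 CPM in #ii, against 11.99, 16.6 and 15.7 CPM in #i. Of 38 tested colonocyte and brush border genes 7 were lower and 3 were higher (Muc17, Slc9a3 and Krt20), while the median was 0.49. The members called in either direction numbered 6 without #i replicate 1. Krt20, a marker of mature colonocytes, had 0.287, 7.099 and 1.48 CPM in #ii, against 0.293, 0.292 and 1.02 CPM in #i. The lines overlapped for Krt20, and its call was lost in 12 of the 18 other settings. Vil1, villin of the brush border, had 43.1, 44.7 and 43.3 CPM in #ii, against 78.96, 77.1 and 72.9 CPM in #i. Car2, a carbonic anhydrase of surface colonocytes, had 105, 97.8 and 81.7 CPM in #ii, against 172, 146 and 184 CPM in #i. Isx, an intestinal homeobox factor, was higher, with 67.2, 63.4 and 69.2 CPM in #ii, against 35.7, 35.9 and 35.1 CPM in #i. Organoid AKP averaged 70.3 CPM of Isx, near #ii. Among 18 tested enteroendocrine and tuft cell genes 3 were higher and 3 were lower, and the members called in either direction numbered 3 without #i replicate 3 and 3 without #ii replicate 3. Ptgs1, the cyclooxygenase known from tuft cells, had 509, 477 and 466 CPM in #ii, against 314, 317 and 333 CPM in #i. Pax6, a homeobox factor of endocrine cells, was counted 0 times in #ii and 30 times in #i, at least 13.7-fold lower in #ii against a floor of 3 counts over the line.

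Injury-type, squamous and YAP-linked genes did not move as one. Of 30 tested fetal-like and regenerative genes 9 were higher and 11 were lower, beside 7.56% and 6.89% of all genes. Ckap4, a membrane protein of the endoplasmic reticulum, had 162, 147 and 149 CPM in #ii, against 71.9, 74.5 and 70.1 CPM in #i. Ly6d, a surface antigen, had 98.3, 117 and 112 CPM in #ii, against 284, 263 and 243 CPM in #i (log2 fold change -1.27 ± 0.08, adjusted p = 6.47e-19). Among 27 tested keratins and squamous-type genes 6 were higher and 9 were lower, and the members called in either direction numbered 9 without #i replicate 1. Krt4, a keratin of stratified epithelium, had 732, 804 and 889.5 CPM in #ii, against 498, 442 and 503 CPM in #i. Dsp, the desmosome protein desmoplakin, had 128, 135 and 119 CPM in #ii, against 193, 176 and 203 CPM in #i. Of 26 tested Hippo-YAP targets 8 were higher and Igfbp3 was lower, with Ankrd1 and Myof of the higher ones on chromosome 19. Ankrd1, a stretch-responsive ankyrin-repeat protein, had 658, 557 and 517 CPM in #ii, against 199, 205 and 206 CPM in #i (log2 fold change 1.51 ± 0.14, adjusted p = 8.00e-09). Wwtr1, which encodes the YAP relative TAZ, had 147, 146 and 146 CPM in #ii, against 97.1, 100.4 and 96.7 CPM in #i. Cav1, the main coat protein of caveolae, had 48.6, 42.6 and 48.2 CPM in #ii, against 114, 128 and 121 CPM in #i (log2 fold change -1.38 ± 0.11, adjusted p = 2.79e-15), and its neighbour Cav2 was lower by a log2 fold change of -0.54 ± 0.10. Organoid AKP averaged 57.99 CPM of Cav1 in letter E, nearer to #ii, but 129.4 CPM in letter F, above the mean of either line.

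Other lists gave single genes that separated the lines. Mt2, a metallothionein that binds zinc and copper, had 64.9, 71.3 and 112 CPM in #ii, against 194, 237 and 233 CPM in #i. Slc39a4, the zinc importer of enterocytes, had 154, 225 and 228 CPM in #ii, against 98.3, 70.7 and 78.98 CPM in #i (log2 fold change 1.298 ± 0.13, adjusted p = 5.31e-09). Organoid AKP averaged 27 CPM of Slc39a4, below both lines. Slc7a3, a cationic amino acid transporter, had 42.5, 45.5 and 43.5 CPM in #ii, against 6.73, 7.59 and 4.43 CPM in #i (log2 fold change 2.79 ± 0.25, adjusted p = 2.48e-12), and organoid AKP averaged 1.05 CPM, below both lines as well. Mmp24, a membrane-type metalloproteinase, had 35.6, 31.02 and 32.1 CPM in #ii, against 9.36, 7.59 and 7.49 CPM in #i. Among 39 tested apoptosis regulators 9 were higher and 2 were lower, among them Casp12, an inflammatory-type caspase, with 8.62, 6.57 and 5.903 CPM in #ii, against 2.34, 2.34 and 1.36 CPM in #i, and Xiap, an inhibitor of caspases, with 175, 188 and 153 CPM in #ii, against 246, 242 and 261 CPM in #i. Of 37 tested p53 targets 2 were higher and 2 were lower. Over all genes tested the shares were 7.56% higher and 6.89% lower. Actb, among the most abundant transcripts, had 11637, 11208 and 11390.3 CPM in #ii, against 12322, 10732 and 11987 CPM in #i and did not pass the test (-0.03 ± 0.07).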

How the data were processed

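Bulk 3′ tag libraries (QuantSeq) of mouse colon organoid lines were aligned by the authors with STAR to GRCm39, and the deposited files give whole, unnormalized read counts for each gene identifier. The annotation, counting tool and strand setting are not given in the sources used here, so overlapping and antisense genes may share reads. Of 32285 identifiers 31674 were named from GENCODE mouse release 39 (GRCm39). The largest identifier without a name took 1.70% to 4.15% of the counts in #ii and 2.54% to 3.89% in #i. It stayed in the library sizes, and leaving out all identifiers without a name was an alternative. Counts of all 33 libraries were fitted in R 4.3.3 with edgeR 4.0.16 (TMM, at least 1 CPM in at least 3 libraries, robust quasi-likelihood test, Benjamini-Hochberg over 13606 genes), with 1 coefficient for each line and library letter (11 coefficients, 22 residual degrees of freedom). The standard error is the size of the log2 fold change divided by the square root of F. Alternatives were other scalings and filters, limma-voom (limma 3.58.1), DESeq2 1.42.0, fewer libraries, letters pooled, a replicate block and each library left out in turn. The scripts were tested on simulated counts. No replicates were duplicates. Intervals and floors cover counting error only.

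The pair of lines and the gene lists were chosen with earlier results of these data known. Named were the 10 largest called changes in each direction (averaging 5 CPM or more where higher, libraries not overlapping, no predicted or pseudogene names), up to 3 called members of each list by p, the targeted genes and those the paper names for growth or clones, and the 3 most abundant genes. Other list members and genes named for their position were chosen after their values were seen. Promoter sequences are from RefSeq (GRCm38.p6). Some genes that meet these rules are not reported here.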

Additional observations from a re-analysis of the deposited data

How the results depend on the processing

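Of 191 called genes that the text or its rule named, 101 passed the threshold in all 18 other settings. All 191 kept their direction. The balance of calls off chromosomes 16 and 19 did reverse. In the main fit 652 genes there were higher and 928 lower, against 852 and 638 with both chromosomes left out of scaling and test. With library letters pooled into 8 lines, 349 genes were higher, 239 were lower and 232 differed by at least 1 log2 unit, against 1029, 938 and 424, and 82 named genes lost the call. All 588 genes called there were among those called with the letters apart. With single libraries left out, 772 to 1164 genes were higher, 561 to 712 were lower and 343 to 411 differed by at least 1 log2 unit. The lower genes fell to 561 without #i replicate 1, 591 without #ii replicate 3 and 615 without #i replicate 3. DESeq2 called 944 higher and 929 lower, and limma-voom 1004 and 954.

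The chromosome 16 median was 0.39 with limma-voom and 0.40 to 0.46 with single libraries left out. The chromosome 19 median was 0.43 with limma-voom, 0.46 with no filter on low counts, 0.45 without identifiers that lack a symbol and 0.45 to 0.48 with single libraries left out. With the genes of chromosomes 16 and 19 left out, a setting chosen after seeing the data, the chromosome X median was -0.064, that of the chromosome 2 interval was -0.65, and 852 genes were higher and 638 lower. With single libraries left out chromosome X ran from -0.112 to -0.074 and the interval from -0.68 to -0.63. The cause of these shifts was not tested.

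The replicate numbers are shared by both lines, but same-numbered libraries did not deviate together (correlations of -0.13, -0.002 and -0.05), so they share only a number. With the replicate block 995 genes were higher and 916 lower, and 1 named gene, mt-Nd2, lost the call. Depth limits genes with few counts, for which counting intervals are given.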
